A study of Mus musculus with 2 samples.

Results

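The 7 secreted WNT antagonist genes Sfrp1, Sfrp2, Frzb, Dkk2, Dkk3, Wif1 and Sostdc1 were followed through the cell classes of the embryonic mouse cochlea. They were found by gene symbol, and all 7 were present among the 32285 genes measured in both libraries. WNT proteins are secreted ligands that bind frizzled receptors and the co-receptors LRP5 and LRP6 and thereby stabilise β-catenin. Secreted antagonists act outside the cell at either step. The products of Sfrp1, Sfrp2 and Frzb carry a frizzled-like domain and bind the ligands, as does WNT inhibitory factor, the product of Wif1. The products of Dkk2 and Sostdc1 bind the co-receptors, and the Sostdc1 product also binds BMPs. Dkk3 encodes a divergent member of the Dickkopf family whose role in the pathway is less settled. In the developing cochlea, WNT signalling is known for its part in patterning the floor of the duct and in the growth of the sensory epithelium.

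Single-cell RNA sequencing had been done on dissected cochleae at embryonic day E16.5, with 1 library from Emx2Cre;Ptch1f/f embryos and 1 library from wild-type embryos. Both were of mixed 129/SvEv, C57BL/6N background, 8 cochleae were used per genotype, and the labels name no treatment. Ptch1 encodes the receptor that keeps Hedgehog signalling off without ligand. Cre was driven by Emx2. The labels do not say which cells had recombined or whether the wild-type embryos carried either allele. With 1 library per genotype there is no replicate check and no test, so a difference between the libraries cannot be told apart from a difference between the genotypes. Every interval below is a 95% interval that covers counting error only, because barcodes of 1 library are not replicates.

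The mutant library held 100135532 UMIs (deduplicated transcript counts) in 12326 barcodes, and the wild-type library 61130806 UMIs in 6500 barcodes. After filtering, 8670 mutant and 6108 wild-type barcodes were kept, with medians of 8146 and 7283 UMIs, and 17 barcode sequences occurred in both. Clusters were made without the 7 members and without any other listed WNT gene, and each was assigned to a class by markers. The classes described are epithelium (2024 mutant and 1420 wild-type barcodes), mesenchyme (5671 and 3431), glia (451 and 438), endothelium (119 and 138) and pericytes (93 and 93). Of the defining markers, all 9 epithelial genes in the mutant and 8 in the wild type reached 10 CPM in the epithelium, and all 12 mesenchymal genes did so in the mesenchyme of both. All 8 glial markers reached it in the glia, all 7 endothelial ones in the endothelium and, of 8 pericyte ones, 8 in mutant and 7 in wild-type pericytes. CPM are UMIs per 1000000 UMIs of the class total. Ptch1 itself was at 185 CPM in mutant and 29.1 CPM in wild-type epithelium, a log2 ratio of 2.62, and at 22.4 and 20.5 CPM in mesenchyme. The Hedgehog target Gli1 was at 19.9 CPM in mutant and 2.21 CPM in wild-type epithelium, a log2 ratio of 2.71. The deleted exons are not given in the sources used here. Because 3′ tags need not lie in them, the Ptch1 level checks neither the deletion nor the labels.

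UMIs of genes that mark other cell classes were found in many barcodes. Erythroid barcodes should lack all 7 members. In the mutant they held Sfrp1, Sfrp2 and Sostdc1 at 3.95, 6.11 and 0.360 CPM, and in the wild type at 47.7, 51.8 and 32.0 CPM. Frzb, Dkk2, Dkk3 and Wif1 were at 1.08, 0, 1.08 and 0 CPM in the mutant and 2.7, 8.86, 7.49 and 3.41 CPM in the wild type. The 8 erythroid markers summed to 906500 and 696300 CPM there, which lowers the CPM of every other gene. Barcodes with over 5 UMIs per 10000 from genes of other lineages, called mixed here, made up 60.4% of mutant and 83.4% of wild-type epithelium. They were 19.7% and 13.3% of mesenchyme, 81.2% and 70.8% of glia, 8.40% and 54.3% of endothelium, and 18.3% and 4.30% of pericytes. That definition counts 2 genes that were at least as high in mutant epithelium as in mutant mesenchyme. Decorin (Dcn) was at 302 CPM in mutant epithelium, against 282 CPM in mutant mesenchyme, and periostin (Postn) at 50.1 against 48.3 CPM. With those genes out of the set, 32.3% of mutant and 56.2% of wild-type epithelial barcodes were mixed. In glia Postn was at 436 CPM in the mutant and 266 CPM in the wild type, against 48.3 and 80.6 CPM in mesenchyme. With Postn out of the set for glia, 47.7% of mutant and 48.9% of wild-type glial barcodes were mixed. How far RNA of other cells enters each ratio between libraries was not tested beyond the values given with and without these barcodes.

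Each member had its own distribution over the classes. In the mutant library Sfrp2, Dkk2 and Dkk3 were highest in mesenchyme, Sfrp1, Frzb and Wif1 in epithelium, and Sostdc1 in glia. In the wild-type library Sfrp2, Dkk2 and Wif1 were highest in mesenchyme, Sfrp1, Frzb and Dkk3 in epithelium, and Sostdc1 in glia. With all barcodes the highest class therefore differed between the libraries for Dkk3 and Wif1, although in the mutant the intervals of epithelium and mesenchyme overlapped for both genes. Without mixed barcodes Dkk3 was at 17.8 CPM in mesenchyme and 16.4 CPM in epithelium of the mutant. In the wild type it was at 25.4 and 22.0 CPM, with 236 epithelial barcodes left, and the intervals overlapped in both libraries. With Dcn and Postn out of the set that defines mixed barcodes, wild-type Dkk3 was at 25.4 CPM in mesenchyme and 58.2 CPM in epithelium. Mutant Dkk3 was then at 17.8 and 17.6 CPM.

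**Figure D1:**
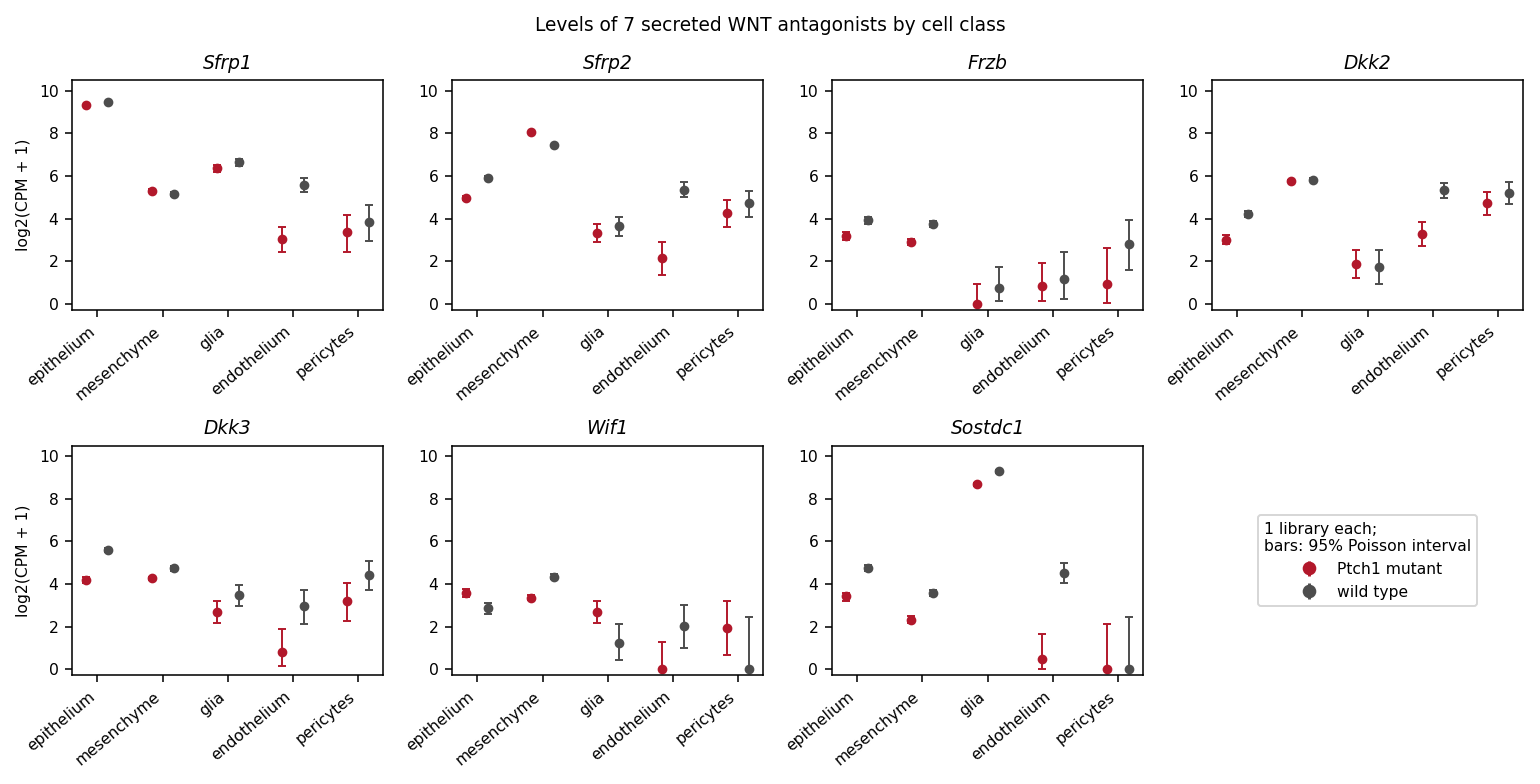
Level of each member as log2(CPM + 1) in 5 cell classes of the Ptch1 mutant (red, left of each pair) and wild-type (grey) library, 1 library each, with exact Poisson 95% intervals. Sfrp1 stands highest in epithelium, Sfrp2 and Dkk2 in mesenchyme and Sostdc1 in glia in both libraries, while the mutant endothelium lies below the wild-type endothelium for Sfrp1, Sfrp2, Dkk2 and Sostdc1.

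Sfrp1, on chr8:23411502-23449632 of GRCm38 (forward strand, 3 exons), was the epithelial member of the ligand-binding group. It was at 636 CPM (625 to 647) in mutant and 705 CPM (692 to 718) in wild-type epithelium. In glia it was at 81.2 and 98.5 CPM, in mesenchyme at 38.7 and 34.3 CPM, and in endothelium at 7.22 and 47.4 CPM. The epithelium thus stood far above every other described class in both libraries, and its barcodes held 83.5% of all mutant and 84.4% of all wild-type Sfrp1 UMIs, from 23.9% and 29.5% of all UMIs. The neighbours in this order had separate intervals down to mesenchyme in the mutant library.

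Sfrp2, on chr3:83766321-83774316 (forward strand, 3 exons), was the mesenchymal member of the same family. It was at 264 CPM (259 to 268) in mutant and 172 CPM (167 to 177) in wild-type mesenchyme. In epithelium it was at 30.2 and 59.9 CPM, and in endothelium at 3.42 and 40.05 CPM. It was at 18.4 and 25.4 CPM in pericytes and at 9.03 and 11.4 CPM in glia. Mesenchymal barcodes held 94.7% of its mutant and 78.0% of its wild-type UMIs. The gene Gm26771 overlaps Sfrp2 on the other strand. The labels do not say whether counting used strand, and without it the reads of these genes cannot be told apart.

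Frzb, on chr2:80411970-80447625 (reverse strand, 6 exons) and also known as secreted frizzled-related protein 3, was sparse. It was at 8.11 CPM in mutant and 14.1 CPM in wild-type epithelium and at 6.46 and 12.5 CPM in mesenchyme. These classes did not differ beyond their intervals in either library. In glia, endothelium and pericytes it had between 0 and 5 UMIs per library, under the 10 UMIs over both libraries required for a ratio.

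Wif1, on chr10:121033960-121100650 (forward strand, 10 exons), was at 9.19 CPM (8.37 to 10.1) in mutant and 19.3 CPM (17.7 to 21.0) in wild-type mesenchyme. In epithelium it was at 11.03 CPM (9.63 to 12.6) in the mutant and 6.21 CPM (5.07 to 7.52) in the wild type. The order of these classes was thus opposite in the libraries, although within the mutant their intervals overlapped.

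Among the co-receptor binders, Dkk2, on chr3:132085292-132180304 (forward strand, 4 exons), was at 53.3 CPM (51.3 to 55.3) in mutant and 56.1 CPM (53.3 to 59.0) in wild-type mesenchyme. Pericytes came next in the mutant library, with 25.7 CPM, against 36.3 CPM in wild-type pericytes, from 28 and 30 UMIs. Endothelium was at 8.75 and 39.4 CPM, and epithelium at 7.07 and 17.6 CPM. Sostdc1, on chr12:36314139-36318452 (forward strand, 2 exons), was at 413 CPM (394 to 433) in mutant and 627 CPM (600 to 656) in wild-type glia. Epithelium held 9.65 and 25.9 CPM, mesenchyme 3.97 and 11.03 CPM, and pericytes none in either library. Glial barcodes, with 4.97% of all mutant and 5.40% of all wild-type UMIs, thus held 80.5% and 64.7% of the Sostdc1 UMIs. Dkk3, on chr7:112116017-112159057 (reverse strand, 8 exons), was at 18.1 CPM in mutant and 25.6 CPM in wild-type mesenchyme and at 17.4 and 46.9 CPM in epithelium. Outside the 5 described classes it was higher still in melanocyte-like barcodes, at 132 CPM in the mutant and 102 CPM in the wild type, from 23 and 45 barcodes.

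Within mesenchyme, 4 members had their highest level, among the clusters shared by both libraries, in cluster 3, whose leading genes were Penk, Col8a1 and Gdf10. A cluster was counted as shared when it held at least 50 barcodes of each library, and 9 mesenchymal clusters were. Clusters 0 (Fabp7, Mt1, Tagln2) and 14 (Btg2, Ntng1, Atf3) were not, with 713 and 113 mutant barcodes and 21 wild-type ones each. Cluster 0 had a median depth of 1722 UMIs, while the lowest kept wild-type barcode had 3352 UMIs. In cluster 3 Sfrp2 was at 739 CPM in the mutant and 340 CPM in the wild type. Dkk2 was at 279 and 201 CPM there, Dkk3 at 54.8 and 60.3 CPM, and Sfrp1 at 167 and 69.0 CPM. Cluster 3 made up 840 of 5671 mutant and 456 of 3431 wild-type mesenchymal barcodes. The next highest cluster for Dkk2, cluster 2 (Aldh1a2, Kcnk2, Dab2), was at 87.5 and 78.3 CPM.

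The other members peaked elsewhere in mesenchyme. Frzb was highest in cluster 5 (Col14a1, Alcam, Sema3d), at 48.9 CPM in the mutant and 57.2 CPM in the wild type, and no other shared mesenchymal cluster passed 8.69 and 14.9 CPM. Wif1 was highest in cluster 24 (Hist1h1b, Top2a, Nusap1), at 31.7 and 49.3 CPM, and in cluster 6 (Col9a3, Coch, Ucma), at 25.2 and 41.7 CPM. Sostdc1 was highest among shared clusters in cluster 2, at 18.4 and 23.2 CPM. It was at 113 CPM in wild-type cluster 13 (Ednrb, Oc90, Fabp7), in which 88.7% of barcodes were mixed and which held 40 mutant and 262 wild-type barcodes.

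Glial Sostdc1 was high in both glial clusters. It was at 389 CPM in mutant and 556 CPM in wild-type barcodes of cluster 7 (Hist1h1b, Hist1h2ap, Nusap1). In cluster 8 (Tcp11l2, Mt1, Kdm5b) it was at 424 and 663 CPM.

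The epithelium of the libraries fell into mostly different clusters. Clusters 10 (Glb1l2, Fat3, Adamts19), 15 (Pclaf, Ube2c, Msc) and 17 (Lor, Vmo1, Dapl1) held 364, 515 and 451 of the 2024 mutant epithelial barcodes. The median depth was 1658 UMIs in cluster 15 and 1849 UMIs in cluster 17, while the lowest kept wild-type barcode had 3352 UMIs. For these clusters, a lack of wild-type barcodes cannot be told apart from how barcodes were called. Clusters 11 (Bmp4, Cgnl1, Sncg), 25 (Crabp1, Calb1, Adgrg2), 28 (Otor, Pf4, C1qa) and 29 (Ccer2, Pcp4, Pou4f3) held 285, 217, 198 and 146 of the 1420 wild-type ones. The smaller clusters 30 (Tac1, Mgp, Fabp7) and 31 (Dct, Pmel, Ptgds) held wild-type barcodes alone, 60 each, and clusters 12, 21 and 26 were shared. Sfrp1 was present in all of them. It was highest in the mutant in cluster 10, at 851 CPM, and lowest in cluster 15, at 246 CPM, and highest in the wild type in cluster 11, at 1685 CPM, and lowest in cluster 29, at 297 CPM. Frzb was highest in the same clusters, at 23.8 CPM in mutant cluster 10 and 33.8 CPM in wild-type cluster 11.

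Dkk3 was concentrated in wild-type epithelial clusters with few mutant barcodes. It was at 159 CPM in cluster 25, which held 13 mutant and 217 wild-type barcodes, and at 67.2 CPM in cluster 29, which held 2 and 146. In the shared clusters it was at 28.0 CPM in the mutant and 38.6 CPM in the wild type in cluster 21 (Hist1h2ap, Cenpf, Mki67), and at 16.2 and 15.8 CPM in cluster 12 (Otoa, Smoc2, Pla2r1). Dkk2 and Sostdc1 were highest, among epithelial clusters with 50 barcodes of the mutant, in cluster 26 (Oc90, Spon1, Frem2). Dkk2 was at 37.4 CPM there in the mutant and 85.7 CPM in the wild type, and between 0 and 1.70 CPM in the other mutant epithelial clusters. Sostdc1 was at 38.6 and 44.9 CPM in cluster 26.

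**Figure D2:**
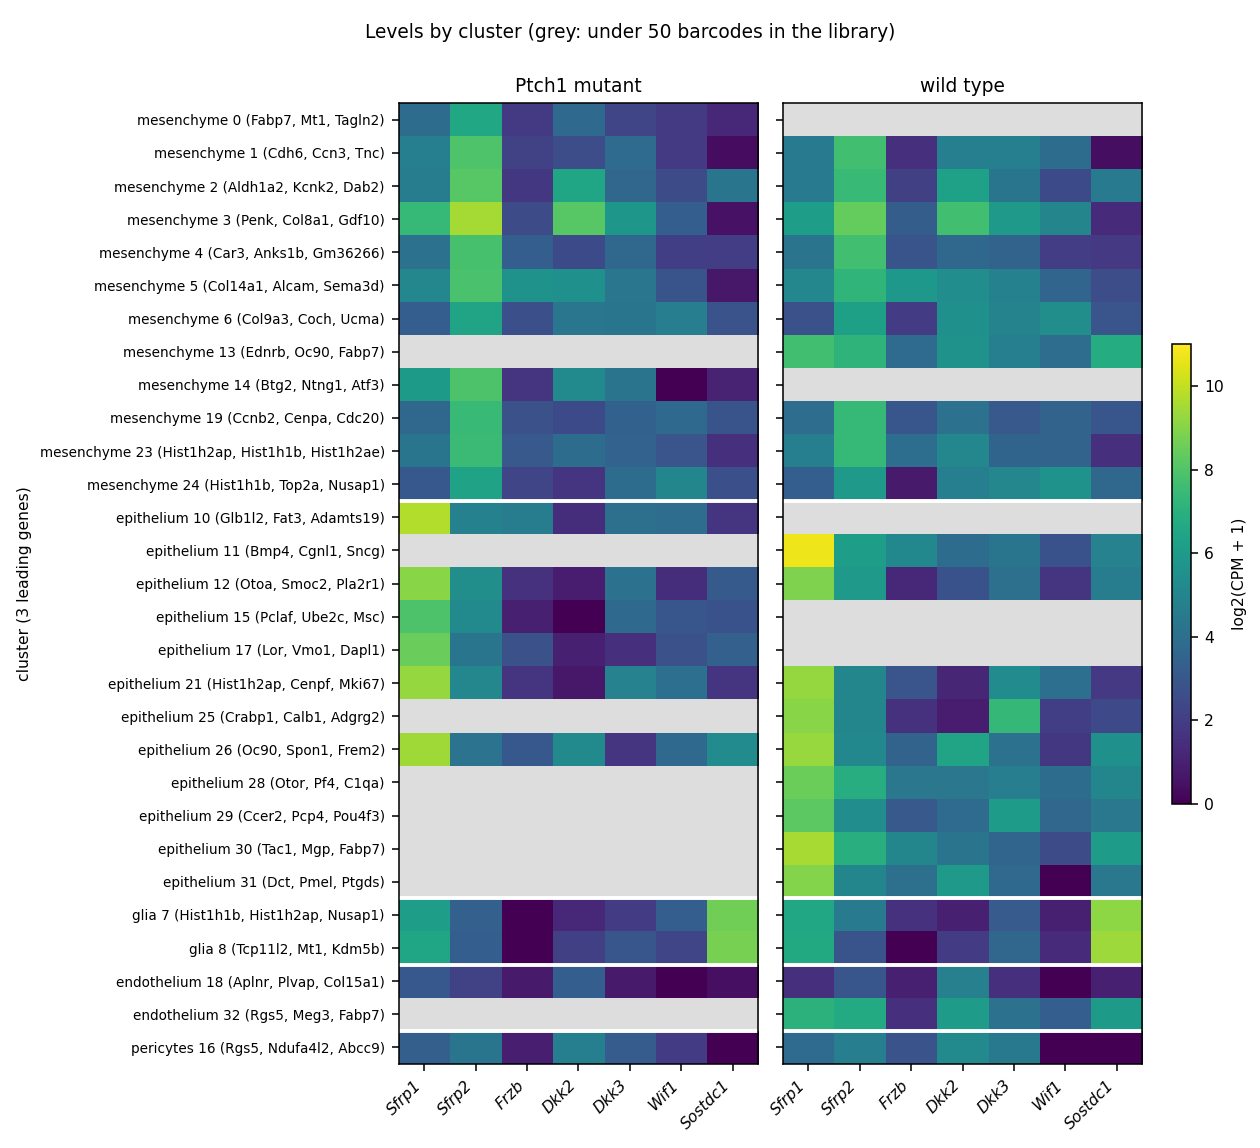
Level of each member as log2(CPM + 1) in each cluster, with the Ptch1 mutant library on the left and the wild-type library on the right; grey marks clusters with under 50 barcodes in that library. Sfrp1 is bright in every epithelial cluster drawn, Sfrp2 and Dkk2 are brightest in mesenchymal cluster 3, Frzb in mesenchyme in cluster 5, and Sostdc1 in both glial clusters.

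Dkk2 and Sfrp2 had the most alike levels of any member pair, with Pearson's r of 0.57 for log2(CPM + 1) over 33 clusters of both libraries summed. This value is a description over clusters that share libraries and depth. The 60 bases just before the annotated starts of these genes, both on the forward strand of chromosome 3, are shown for that reason. They come from RefSeq's promoter table (GRCm38.p6), run 5′ to 3′, and span chr3:83766261-83766320 and chr3:132085232-132085291. Capitals mark the longest run of letters that both hold.
Sfrp2: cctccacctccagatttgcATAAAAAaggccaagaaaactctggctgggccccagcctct
Dkk2: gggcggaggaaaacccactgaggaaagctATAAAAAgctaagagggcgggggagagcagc
The run of 7 bases begins 41 bases before the start in Sfrp2 and 31 bases before it in Dkk2. On the sense strand it occurs in the same window of 249 of 32851 promoters (0.758%). Neither 250-base promoter holds the GLI letters GACCACCCA or the TCF letters CTTTGAT or CTTTGAA on either strand. These letters occur in 0.225% and 7.48% of all windows of that length, and their lack says only that they are not in these windows.

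Between the libraries, few members differed 2-fold in mesenchyme. A level was counted as 2-fold different at a log2 ratio, mutant over wild type with 1 CPM added, of 1 or more or -1 or less. Of the 7 members, all measured in mesenchyme, 0 were 2-fold higher and 1, Sostdc1, was 2-fold lower, where 0.423% and 0.727% of 16773 measured genes were 2-fold higher and lower. The log2 ratio of Sostdc1 was -1.28 in the whole class. It was -0.35 without clusters 0 and 13, which had a marker of another class among their 3 leading genes and are called clusters led by markers of other classes. Wif1 was just short of the fold, with 9.19 CPM in the mutant and 19.3 CPM in the wild type, a log2 ratio of -0.99 (fold 0.476, 0.419 to 0.540), and reached it under median-of-ratios scaling, with the mean over barcodes and, at -1.01, without mixed barcodes under either definition. Sostdc1 had -0.43 without them, so that the 1 member 2-fold lower was then Wif1. Frzb had a log2 ratio of -0.85 and Dkk3 of -0.47. Sfrp2 had a log2 ratio of 0.61 (fold 1.53, 1.48 to 1.59), which stayed between 0.57 and 0.67 under all alternatives run. The median over all measured mesenchymal genes was 0.04.

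The sums over the class hid differences between its clusters. Dkk2 had a log2 ratio of -0.07 in the whole mesenchyme, from 53.3 CPM in the mutant and 56.1 CPM in the wild type. Yet it was at least 2-fold lower in the mutant in 6 of the 9 shared mesenchymal clusters, where between 1.05% and 3.44% of measured genes were. In cluster 1 (Cdh6, Ccn3, Tnc) Dkk2 was at 4.99 CPM in the mutant and 26.2 CPM in the wild type, a log2 ratio of -2.18 from 49 and 85 UMIs. In cluster 6 it was at 18.9 and 44.9 CPM, a ratio of -1.21 from 105 and 196 UMIs. The lowest ratio, -3.10, was in cluster 24, at 2.16 and 26.1 CPM from 6 and 36 UMIs. Cluster 4 (Car3, Anks1b, Gm36266) was at 4.54 and 11.9 CPM and cluster 19 (Ccnb2, Cenpa, Cdc20) at 4.54 and 16.6 CPM. Erythroid barcodes held Dkk2 at 0 CPM in the mutant and 8.86 CPM in the wild type. How far such RNA enters these ratios was not tested. In clusters 3, 2 and 5, the highest for Dkk2 among shared clusters of the mutant, the ratios were 0.47, 0.16 and 0.14. In both libraries Dkk2 was highest in clusters 3 and 2, which were not among the 6, while in the wild type the next shared cluster was cluster 6, which was among them.

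The Sfrp2 ratios had the other sign. The log2 ratio was above 0 in all 9 shared clusters, between 0.10 and 1.12, and in 6 of them the interval of the fold lay above 1. Sfrp2 passed the 2-fold mark in cluster 3 alone, where Sfrp1 also passed it, with a log2 ratio of 1.26 (fold 2.09 to 2.81). In those clusters between 1.35% and 3.82% of measured genes were 2-fold higher. Wif1 was lower in cluster 3, at 8.76 CPM in the mutant and 31.2 CPM in the wild type, a log2 ratio of -1.72. It was lower in cluster 1 too, at 2.65 and 13.9 CPM, a ratio of -2.03. In cluster 3, then, Sfrp1 and Sfrp2 were at least 2-fold higher and Wif1 at least 2-fold lower in the mutant, while Dkk3 was at 54.8 and 60.3 CPM, a ratio of -0.13. Frzb was 2-fold higher in cluster 24, from 11 mutant and 1 wild-type UMIs (fold 0.794 to 235), and Dkk3 2-fold lower there, at 14.0 and 33.3 CPM.

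**Figure D3:**
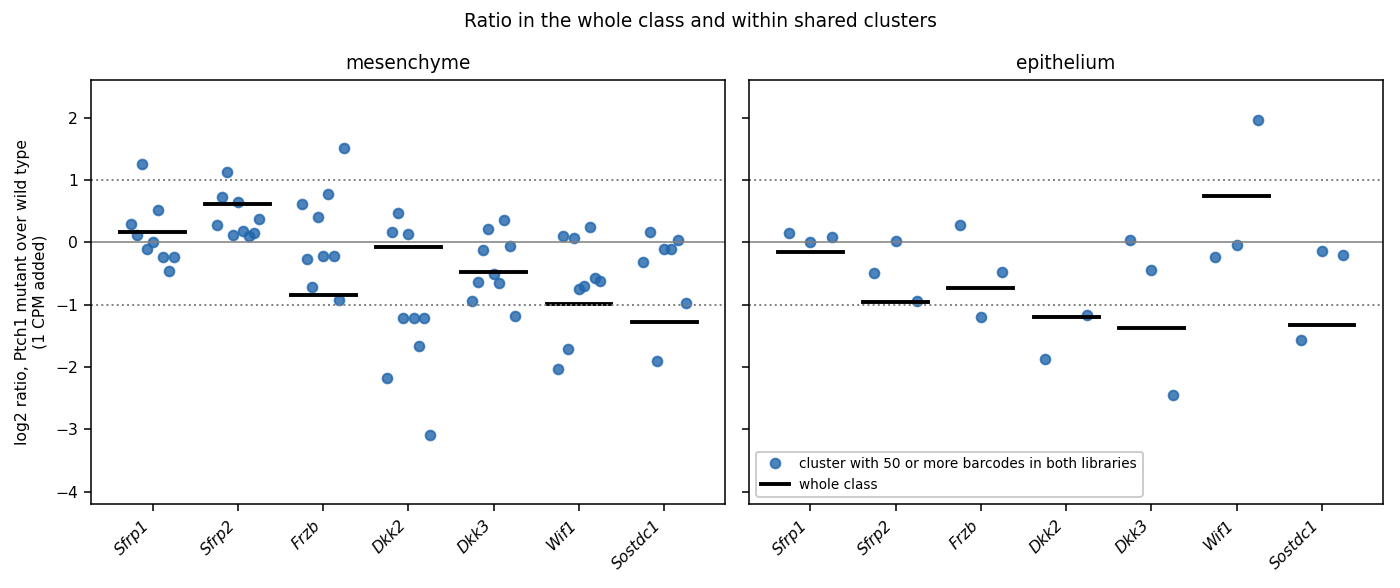
Log2 ratio of each member, Ptch1 mutant over wild type with 1 CPM added, in the whole class (black line) and in each measured cluster with at least 50 barcodes in both libraries (blue points), for mesenchyme and epithelium; dotted lines mark 2-fold. In mesenchyme the Sfrp2 points all lie above 0, while 6 of 9 Dkk2 points lie below the lower dotted line and the class line for Dkk2 lies at -0.07.

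In epithelium, 0 of 7 measured members were 2-fold higher and 3 were 2-fold lower in the mutant, where 2.27% and 6.06% of 16224 measured genes were. The 3 were Dkk3, Sostdc1 and Dkk2. Dkk3 was at 17.4 CPM in the mutant and 46.9 CPM in the wild type, a log2 ratio of -1.38 (fold 0.371, 0.326 to 0.421). Sostdc1 was at 9.65 and 25.9 CPM, a ratio of -1.33 (fold 0.314 to 0.443), and Dkk2 at 7.07 and 17.6 CPM, a ratio of -1.20 (fold 0.328 to 0.494). For all 3 the wild-type level was the higher, by more than counting error. Sfrp2 had a ratio of -0.96, Frzb of -0.73, Sfrp1 of -0.15 and Wif1 of 0.74, the last from 223 mutant and 104 wild-type UMIs. Without mixed barcodes Sfrp1 had -0.87, at 676 and 1236 CPM, Sfrp2 had -0.13, Frzb -0.74 and Wif1 0.87. The median over all measured epithelial genes was 0.04.

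These epithelial ratios moved with the barcodes used. The 12 mesenchymal markers summed to 524 CPM in mutant and 1988 CPM in wild-type epithelium, with 5 and 12 of them at 10 CPM or more and none at 0. The 8 glial markers summed to 334 and 471 CPM, none at 0. Without mixed barcodes, Dkk3 had a log2 ratio of -0.40 and Sostdc1 of -0.34, and Dkk2 of -3.18, so that 1 of 7 members was 2-fold lower, where 5.14% of 13923 measured genes were lower and 3.33% higher. That Dkk2 ratio came from 5 mutant and 50 wild-type UMIs, against 143 and 294 with all barcodes. With Dcn and Postn out of the set that defines mixed barcodes, Dkk2 was at 0.821 CPM in the mutant and 9.90 CPM in the wild type, and Dkk3 at 17.6 and 58.2 CPM. Their ratios were then -2.58 and -1.67, that of Sostdc1 was -0.85, and Wif1 was 2-fold higher in the mutant, at 10.7 and 4.08 CPM. Dkk2 was therefore at least 2-fold lower in the mutant under both definitions and with all barcodes, Dkk3 under the narrower one and with all barcodes, and Sostdc1 with all barcodes alone. Dkk2 was short of the fold with 5 CPM added, at -0.90. Without clusters led by markers of other classes, 2 of 7 members, Dkk3 and Sostdc1, were 2-fold lower.

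In the epithelial clusters shared by both libraries the values were closer for Sfrp1. It was at 527 CPM in the mutant and 474 CPM in the wild type in cluster 12, at 618 and 612 CPM in cluster 21, and at 680 and 640 CPM in cluster 26, with log2 ratios of 0.15, 0.01 and 0.09. The whole-class ratio of Sfrp1 was thus on the other side of 0 from the ratio in each shared cluster. In cluster 26 Dkk2 had a ratio of -1.17 from 124 and 107 UMIs and Dkk3 of -2.45 from 7 and 20 UMIs. Wif1 was higher there, at 12.4 and 2.40 CPM from 41 and 3 UMIs, a fold of 1.64 to 26.0. Sostdc1 had a ratio of -0.21 in cluster 26 and -1.57 in cluster 12, at 7.55 and 24.5 CPM. Dkk3 had a ratio of 0.03 in cluster 12, from 58 and 44 UMIs. In cluster 21 it had -0.45 from 175 and 30 UMIs, and its fold interval of 0.490 to 1.11 spanned 1. Wif1 had ratios of -0.24 in cluster 12 and -0.04 in cluster 21. In the shared epithelial clusters 3.29% to 8.58% of measured genes were 2-fold higher and 2.18% to 7.36% were 2-fold lower.

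The level of a mesenchymal member in epithelium was set beside that of 3 collagen genes of mesenchyme, Col1a1, Col1a2 and Col3a1. In the mutant, epithelium held these at 4.86%, 6.10% and 3.38% of their mesenchymal CPM, and in the wild type at 44.2%, 18.1% and 14.3%. Sfrp2 was at 11.5% in the mutant and 34.8% in the wild type, and Dkk2 at 13.3% and 31.3%. Without mixed barcodes the collagens were at 1.22% to 3.19% in the mutant and 1.28% to 1.86% in the wild type. Sfrp2 was then at 11.7% and 19.4%, above all 3 collagens in both libraries. The collagens are among the genes that define mixed barcodes, so leaving those barcodes out lowers the collagen percentages by construction. A member's place above the collagens without mixed barcodes therefore does not show expression in epithelium. Epithelial Dkk2 without mixed barcodes was at 1.27% in the mutant, within the range of the collagens, and at 24.8% in the wild type, above it. These values rest on 5 mutant and 50 wild-type UMIs. Of the 143 Dkk2 UMIs in all mutant epithelial barcodes, 124 were in cluster 26, in which 77.1% of barcodes were mixed. The mutant value therefore says little about that cluster, where Dkk2 was at 37.4 CPM with all barcodes.

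**Figure D4:**
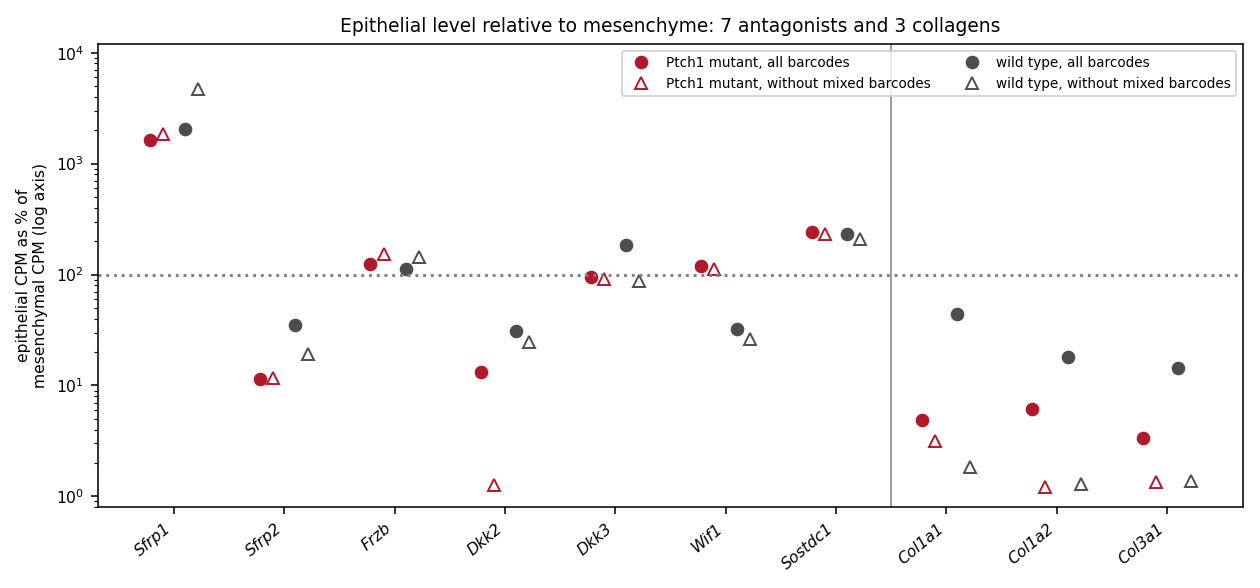
Epithelial CPM as a percentage of mesenchymal CPM (log axis) for the 7 members and 3 collagens, in the Ptch1 mutant (red) and wild type (grey), with all barcodes (filled circles) and without mixed barcodes (open triangles). Without mixed barcodes the collagens lie between 1.22% and 3.19% in both libraries, mutant Dkk2 lies among them at 1.27%, and wild-type Dkk2 lies at 24.8%. The collagens are among the genes that define mixed barcodes, and that mutant Dkk2 value rests on 5 UMIs.

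In glia, 1 of 6 measured members was 2-fold higher in the mutant and 0 were 2-fold lower, where 2.09% and 1.52% of 12450 measured genes were. The 1 was Wif1, with 23 mutant and 4 wild-type UMIs, or 5.46 and 1.31 CPM, a log2 ratio of 1.49 (fold 1.43 to 16.7). It had no UMI in either library's glial barcodes left by the first definition of mixed barcodes, and 11 mutant UMIs and 0 wild-type UMIs in those left by the narrower one. Sostdc1 had a log2 ratio of -0.60 (fold 0.658, 0.616 to 0.703). The ratio was -0.51 in cluster 7 and -0.64 in cluster 8. It was -0.26 without mixed barcodes, with 85 mutant and 128 wild-type barcodes left, and -0.57 under the narrower definition. Sfrp1 had a ratio of -0.28, with 0.37 under the first definition and -0.18 under the narrower one. Dkk3 had -0.78 with all barcodes. It was 2-fold lower under both definitions, at -1.02 from 3 and 8 UMIs and -1.23 from 8 and 15 UMIs. Under the first definition 3.86% of 9647 measured glial genes were 2-fold lower. The median over all measured glial genes, with all barcodes, was 0.01.

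In endothelium, 5 of 5 measured members were 2-fold lower in the mutant and 0 were 2-fold higher, where 9.54% and 2.64% of 11609 measured genes were. Cluster 32 (Rgs5, Meg3, Fabp7) held 60 of the wild-type barcodes, all mixed, and no mutant ones. Without it, Dkk2 alone of the 5 was 2-fold lower, and Dkk3 and Sostdc1 had under 10 UMIs. There Sfrp1 was at 134 CPM, Sfrp2 at 103 CPM and Sostdc1 at 62.3 CPM, each above its level in wild-type erythroid barcodes. The 12 mesenchymal markers summed to 118 CPM in mutant and 1455 CPM in wild-type endothelium, with 2 and 12 at 10 CPM or more. In the shared cluster 18 (Aplnr, Plvap, Col15a1) Sfrp1 was at 7.22 CPM in the mutant and 1.89 CPM in the wild type, from 19 and 2 UMIs, a log2 ratio of 1.51. Sfrp2 was at 3.42 and 6.60 CPM there. Dkk2 was at 8.75 and 26.4 CPM, a ratio of -1.49 from 23 and 28 UMIs. Within the shared cluster, then, Dkk2 was 2-fold lower, and Sfrp1 was higher in the mutant on few UMIs (fold 0.925 to 33.9).

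In pericytes, 0 of 4 measured members were 2-fold higher and 1 was 2-fold lower in the mutant, where 4.12% and 3.54% of 10225 measured genes were. The 1 was Dkk3, with 9 mutant and 17 wild-type UMIs, a log2 ratio of -1.22 (fold 0.158 to 0.953). Dkk2, the member with most UMIs in pericytes, had a ratio of -0.48. Its fold interval of 0.408 to 1.23 spanned 1.

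Shares of barcodes with a UMI were compared after each barcode had been thinned to 2000 UMIs. This left out 658 mutant and 0 wild-type epithelial barcodes and 531 and 0 mesenchymal ones as too shallow. Sfrp1 was found in 60.5% (57.8 to 63.1) of mutant and 59.4% (56.8 to 61.9) of wild-type epithelial barcodes, against 67.0% and 91.2% before thinning. The thinned shares thus overlapped, where the unthinned ones had stood far apart beside median depths of 3923 and 8390 UMIs. Sfrp2 was found in 34.9% (33.6 to 36.2) of mutant and 27.2% (25.7 to 28.7) of wild-type mesenchymal barcodes, against 67.6% and 59.0% before thinning. The mutant share was the higher by more than counting error. Dkk2 was found in 8.64% and 9.15% of mesenchymal barcodes and Sostdc1 in 47.3% (42.6 to 52.1) of mutant and 58.0% (53.2 to 62.7) of wild-type glial ones. For Dkk2 the intervals overlapped and for Sostdc1 they did not.

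Erythroid barcodes were used as a background for these shares. Thinned alike, 0 of 51 mutant erythroid barcodes held any member, with an interval that reached 6.98%. Of 111 wild-type ones, 13.5% held Sfrp1, 11.7% held Sfrp2 and 9.01% held Sostdc1. The median depths of mutant and wild-type erythroid barcodes were 38403 and 9649 UMIs. Before thinning, 9.80% of the mutant ones held Sfrp1 and 21.57% held Sfrp2, against 44.14% and 47.75% in the wild type. The erythroid markers summed to 906500 CPM in the mutant and 696300 CPM in the wild type there. Thinning thus left few UMIs of other genes, and fewer in the mutant. The thinned erythroid shares can therefore understate the background of other classes, and unequally between the libraries. In the wild type, the Sfrp2 share in epithelium (12.5%), the Sfrp1 share in mesenchyme (6.12%) and the Sostdc1 shares in epithelium (4.09%) and mesenchyme (1.87%) were within or below the erythroid intervals, so no expression is read from these shares alone. The wild-type erythroid barcodes were themselves 75.7% mixed, against 13.3% of wild-type mesenchyme, and are no clean background. Wild-type Wif1 was in 3.82% (3.20 to 4.51) of mesenchymal and 0 of 111 erythroid barcodes, whose interval reached 3.27%. In the mutant, the erythroid interval reached 6.98% for each member. The Sfrp2 share in epithelium (5.49%) and the Sfrp1 share in mesenchyme (6.32% to 7.74%) were not separated from it. Nor were the mutant shares of Frzb, Dkk3, Wif1 and Sostdc1 in these classes, at 0.545% to 3.31%, or of Dkk2 in epithelium, at 0.512%.

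**Figure D5:**
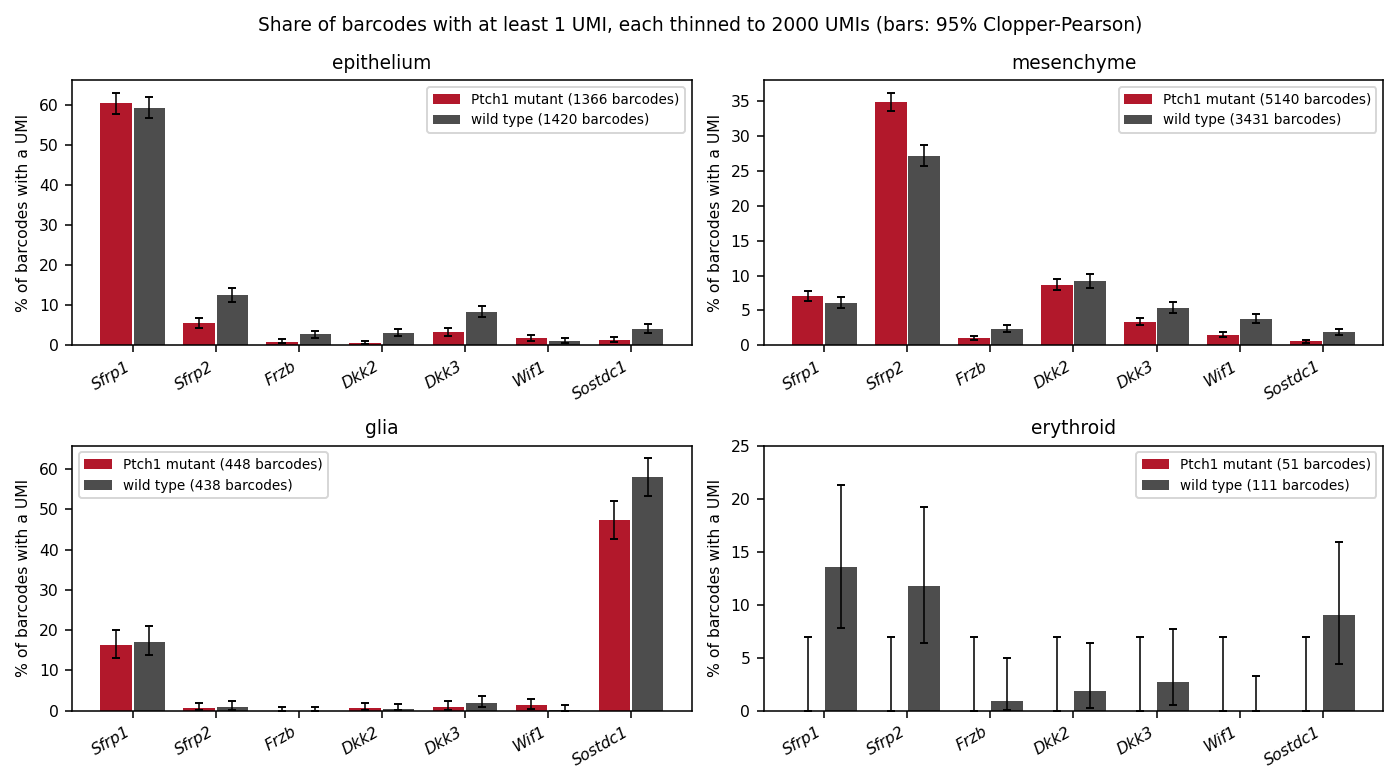
Percentage of barcodes with at least 1 UMI of each member after thinning to 2000 UMIs, in epithelium, mesenchyme, glia and erythroid barcodes of the Ptch1 mutant (red) and wild-type (grey) library, with exact Clopper-Pearson 95% intervals. Sfrp1 reaches 60.5% and 59.4% in epithelium, Sfrp2 34.9% and 27.2% in mesenchyme and Sostdc1 47.3% and 58.0% in glia, while wild-type erythroid barcodes reach 13.5% for Sfrp1.

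Most mesenchymal barcodes held none or 1 of the members at that depth. None was found in 55.5% of mutant and 55.5% of wild-type barcodes, 1 in 34.2% and 34.3%, and 3 or more in 2.0% and 1.2%. The 4 members highest in cluster 3 form 6 pairs. In the mutant all 6 were found together more often than the product of their shares, at 1.23 to 2.93 times, and in the wild type 5 were, at 1.13 to 1.82 times. The exception was Sfrp1 with Dkk3, in 6 wild-type barcodes against a product of 11.3, or 0.530 times. Sfrp2 and Dkk2 shared 254 of 5140 mutant barcodes, 1.64 times the product, and 119 of 3431 wild-type ones, 1.39 times. Sfrp1 and Dkk2 shared 91 mutant barcodes, 2.93 times the product, and 35 wild-type ones, 1.82 times. Sfrp2 and Wif1 were found together less often than the product, at 0.781 times in the mutant and 0.533 times in the wild type, from 21 and 19 barcodes. The 4 members were picked for a shared highest cluster in these same barcodes, so joint detection above the product is expected from that choice. No comparison within a cluster was made. These counts are a description of barcodes within each library.

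The other genes of the pathway were read from 4 lists. Of 19 WNT ligand genes, 11 were measured in epithelium. Of these, 1 was 2-fold higher in the mutant, Wnt4, at 32.8 CPM in the mutant and 9.37 CPM in the wild type, a log2 ratio of 1.70. Wnt2, Wnt3 and Wnt6 were 2-fold lower, Wnt6 at 0.346 and 5.07 CPM, and the median over the list was -0.30. Without mixed barcodes, 7 were measured and 0 were 2-fold different in either direction, with Wnt4 at 21.1 and 16.1 CPM. In mesenchyme 12 ligand genes were measured, 0 were higher and 1, Wnt2, was lower at 6.58 and 14.6 CPM, with a list median of -0.05. Wnt4 had the highest ratio there, 0.58.

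The 18 receptor and co-receptor genes, of the frizzled, LRP, ROR, RYK and LGR families, were all measured in both classes. In epithelium 0 were 2-fold higher and 1, Fzd10, was 2-fold lower from 8 mutant and 37 wild-type UMIs, with a list median of 0.15. Without mixed barcodes 17 were measured and 1, Lgr6, was 2-fold lower from 14 and 17 UMIs. Fzd7, a frizzled receptor, had the highest ratio, 0.94, at 66.1 CPM in the mutant and 34.1 CPM in the wild type. In mesenchyme 0 were 2-fold different, the median was -0.08, and the ratios ran between -0.46 for Lgr5 and 0.53 for Fzd4.

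Of 12 genes that respond to WNT signalling, all measured in epithelium, Ccnd1, which encodes cyclin D1, was 2-fold higher at 703 CPM in the mutant and 240 CPM in the wild type. Lef1 and Notum were 2-fold lower, Lef1 at 8.31 and 24.4 CPM, and the list median was -0.23. Without mixed barcodes 0 of 11 were 2-fold different, with Ccnd1 just short of the fold at 685 and 342 CPM (fold 1.88 to 2.13). The feedback inhibitor Axin2 was at 36.3 and 38.9 CPM in epithelium and at 69.5 and 92.1 CPM in mesenchyme, log2 ratios of -0.10 and -0.40. In mesenchyme 0 of 12 were 2-fold higher and 1 was lower. It was Notum, which encodes an enzyme that inactivates WNT ligands, at 4.13 and 11.5 CPM, and the median was -0.09. Myc had the highest ratio there, 0.30.

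Of 22 other antagonist and feedback genes, 17 were measured in epithelium. There 0 were 2-fold higher and 2, Igfbp4 and Notum, were lower, Igfbp4 at 51.6 CPM in the mutant and 198 CPM in the wild type. The list median was -0.13. Without mixed barcodes 12 were measured. Of these Shisa2 was 2-fold higher, at 74.6 and 19.5 CPM (log2 ratio 1.89), Draxin was 2-fold lower from 8 and 12 UMIs, and Igfbp4 had a ratio of -0.99. In mesenchyme 18 were measured, 0 were higher and 1, Notum, was lower, with a median of 0.00. Shisa2, whose product retains frizzled receptors inside the cell, lay at the edge of the 2-fold call in mesenchyme, at 86.1 and 42.6 CPM, a log2 ratio of 1.00 after rounding, and had 0.87 in epithelium with all barcodes.

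Genes with the most alike levels over the 33 clusters were named for each member, out of 11096 compared. Those of Sfrp1 were Arhgef19 (Pearson's r of 0.927), Cnmd, Prss8, BC006965 and Me1. For Sfrp2 they were its overlapping neighbour Gm26771 (0.93), then Loxl1, Islr, Scara5 and Prrx2. For Frzb they were Sema3a (0.803), Fbln7, Rgs6, Unc5c and Clstn3, and for Wif1 Dcn (0.73), Raver2, Zfp469, Usp29 and Egfl6. For Dkk2 they were Foxc2 (0.839), Foxd1, Oaf, Lox and Chst14, for Sostdc1 Mmd2 (0.858), Dlx1, Npr3, Aspa and Adam23, and for Dkk3 Wdr60 (0.74), Osbpl6, Gm16152, Igsf3 and Daam1. These are descriptions over clusters that share libraries and depth.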

How the data were processed

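UMI counts per gene and barcode were deposited as raw whole numbers, without normalization by the authors. Per the submitters' processing notes they were made with Cell Ranger 6.0.0 and mm10. Per the file headers the mutant counts came from Cell Ranger 5.0.1 and the wild-type counts from 6.0.0. Per the labels' protocols the kit was version 3.1, but the descriptions name 3.2 for the mutant and 3.1 for the wild type. The rule that called barcodes is unstated in these sources. These differences cannot be told apart from genotype.

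Barcodes with at least 1000 UMIs, 500 genes and at most 10% mitochondrial UMIs passed (9373 mutant, 6440 wild type). Scrublet called 0 doublets in each library and so had not worked. The top-scored 0.8% per 1000 barcodes were removed in its place, 703 and 332. Barcodes of both libraries were clustered together in scanpy 1.11.5 (2000 variable genes without members and listed WNT genes, 30 components, 15 neighbours, Leiden resolution 1), with no correction between libraries. The 33 clusters were named from 11 marker sets, with at least 3 markers at 10 CPM. The lowest kept barcode had 1000 UMIs in the mutant and 3352 in the wild type.

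UMIs were summed per library and class or cluster and given as CPM, with exact Poisson intervals. Folds have exact conditional binomial intervals and shares exact Clopper-Pearson intervals (scipy 1.17.1). Log2 ratios add 1 CPM and need 10 UMIs over both libraries. No test was possible with 1 library per genotype. The ratio and interval code was tested on simulated counts. Gene positions are from GENCODE vM21 (GRCm38).

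The members and lists were chosen with earlier results of these data known. Named genes were the members, Ptch1 and Gli1, the highest and lowest gene of each list with at least 30 UMIs in epithelium and mesenchyme, the collagens and the 5 most alike genes per member. Dcn, Postn, Axin2, Wnt2, Wnt3, Draxin and Lgr6 were added after their values were seen. A further Hedgehog gene is not reported here.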

Additional observations from a re-analysis of the deposited data

How the results depend on the processing

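Of 281 log2 ratios recomputed under 10 alternatives, 216 stayed within their counting interval, 62 moved beyond it and 3 that were past 2-fold changed sign. These were all Sfrp1 in endothelium, -2.56 as reported: 1.27 without mixed barcodes, 1.27 with the narrower gene set for mixed barcodes, and 1.51 without clusters led by markers of other classes. The last 2 settings were chosen after seeing the data. Among ratios under 2-fold as reported, 8 values changed sign. They were Sfrp1 in mesenchyme (0.17 as reported, -0.29 at Leiden resolution 2, -0.45 with a gate per barcode), glia (-0.28 as reported, 0.37 without mixed barcodes) and pericytes (-0.49 as reported, 0.29 without doublet removal), Sfrp2 in glia (-0.31 as reported, 0.45 without doublet removal, 0.34 with the narrower set) and Dkk2 in glia (0.14 as reported, -0.30 with the gate, -0.34 without doublet removal). Members 2-fold lower in epithelium were 3 as reported, 1 without mixed barcodes and 5 with the mean over barcodes, and members 2-fold higher were 0 as reported and 1 with the narrower set. Members 2-fold lower in mesenchyme were 1 as reported (Sostdc1), 1 under either definition of mixed barcodes (Wif1 in its place), 2 with median-of-ratios scaling and with the mean over barcodes, and 0 with 5 CPM added, without doublet removal and without clusters led by other markers. Glia had 1 member higher as reported and 0 without mixed barcodes, with 5 CPM added, without doublet removal and at 30 UMIs, and 0 lower as reported but 1 under either definition of mixed barcodes. Endothelium had 5 lower and 0 higher as reported, and 1 lower and 1 higher under either definition and without clusters led by other markers. Pericytes had 1 lower as reported, 2 with a gate per barcode, and 0 under either definition, with 5 CPM added, without doublet removal and at 30 UMIs. Without mixed barcodes, 2.35% of measured endothelial genes were 2-fold lower and 4.72% higher. In glia these shares were 3.86% and 3.90%, in pericytes 3.73% and 3.81%, and in mesenchyme 0.613% and 0.437%. For the other alternatives the share over all genes is not given here, so those counts have no background beside them. The counts highest in mesenchyme, 3 and 3, moved by at most 1. Of 70 shares, 51 moved by more than their interval when left unthinned. The cause of these changes was not tested. Depth limits Frzb and Wif1 most, with 499 and 710 mutant UMIs in all kept barcodes. No paired analysis was possible because each genotype has 1 library.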
